A study of Mus musculus with 6 samples.

Results

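The genes described here are 10 regulators of the G1 phase of the cell cycle, namely the D-type cyclins Ccnd2 and Ccnd3, the cyclin-dependent kinases (CDKs) Cdk2, Cdk4 and Cdk6, the CDK inhibitors Cdkn1b, Cdkn2c and Cdkn2d, and the pocket proteins Rb1 and Rbl2. They were chosen by gene symbol, all 10 were found among the 46983 genes counted, and all 10 were among the 12336 genes with enough reads to be tested. RNA sequencing of rRNA-depleted total RNA was performed on naïve CD4 T cells sorted from mouse lymph nodes by surface markers, among them TCRb+ CD4+ CD44-. There were 3 control libraries of genotype Rnmt fl/fl CD4cre - and 3 Rnmt cKO libraries of genotype Rnmt fl/fl CD4cre +, all from males on a C57B6/J background, with no age given. Both groups carried loxP sites around an exon of Rnmt, the gene of the methyltransferase that completes the RNA cap. The Cre transgene is driven by Cd4 regulatory sequence and was absent from the controls, so the presence of Cre and the loss of Rnmt cannot be told apart. The labels name the 3 libraries of a group as separate samples without naming animals, and p-values measure the spread between these samples.

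D-type cyclins bind Cdk4 and Cdk6 when a cell leaves quiescence, and the complexes phosphorylate Rb1 and its relative Rbl2, which otherwise hold E2F transcription factors in check. INK4 proteins, encoded here by Cdkn2c (p18) and Cdkn2d (p19), bind Cdk4 and Cdk6 and keep cyclins away, whereas Cdkn1b (p27) mainly restrains Cdk2 with its E- and A-type cyclins. Naïve T cells rest outside the cycle, with p27 and the pocket proteins among the factors that keep them there, until antigen receptor signalling drives them into G1. Which of these transcripts depend on RNMT in resting cells is the question of the comparison.

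Sense counts assigned to genes ranged from 8873413 to 11277764 per library, and expression is given as CPM, the counts of a gene relative to the TMM-scaled total of its library. Rnmt itself went from 56.0 ± 3.94 CPM to 35.3 ± 7.88 CPM from controls to Rnmt cKO cells (mean ± SD, n = 3 per genotype), a log2 fold change of -0.67 with an edgeR exact test adjusted p of 0.00035, where reads outside the deleted exon still count. Unique reads outside any gene differed between libraries in a way the genotypes do not follow. Their share was 31.8% to 39.7% in controls 1 and 2 and Rnmt cKO 3 and 46.1% to 47.9% in control 3 and Rnmt cKO 1 and 2. Of the 9 naïve CD4 T cell markers all were tested, with a summed expression of 5272 to 5595 CPM in controls and 6043 to 6760 CPM in Rnmt cKO cells. Of these 9, 3 were called higher, Cd4 and S1pr1 among them, 1 was lower and 5 had no call, including Cd3e and Cd3d. The background is 8.0% of tested genes called higher and 6.84% called lower. The marker called lower was Il7r, the interleukin 7 receptor chain that maintains resting T cells. It fell from 368 ± 27.2 to 189.5 ± 14.4 CPM (mean ± SD, n = 3 per genotype). In bulk RNA a change in the number of cells of a type and a change in RNA per cell cannot be told apart.

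Of the 10 G1 regulators, Cdk6, Cdkn2c and Cdkn2d were higher in Rnmt cKO cells and none was lower. The background is 8.0% of tested genes called higher and 6.84% called lower. No member was lower at an unadjusted p under 0.05 either, nor by the quasi-likelihood test or DESeq2, and 6 were higher at an unadjusted p under 0.05 in the exact test. Groups did not overlap for 6 of the 10, all with Rnmt cKO cells above controls, where 16.6% of tested genes had such a separation upwards and 31.4% in either direction. The median log2 fold change of the 10 was 0.25, against 0.01 over all tested genes.

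**Figure D1:**
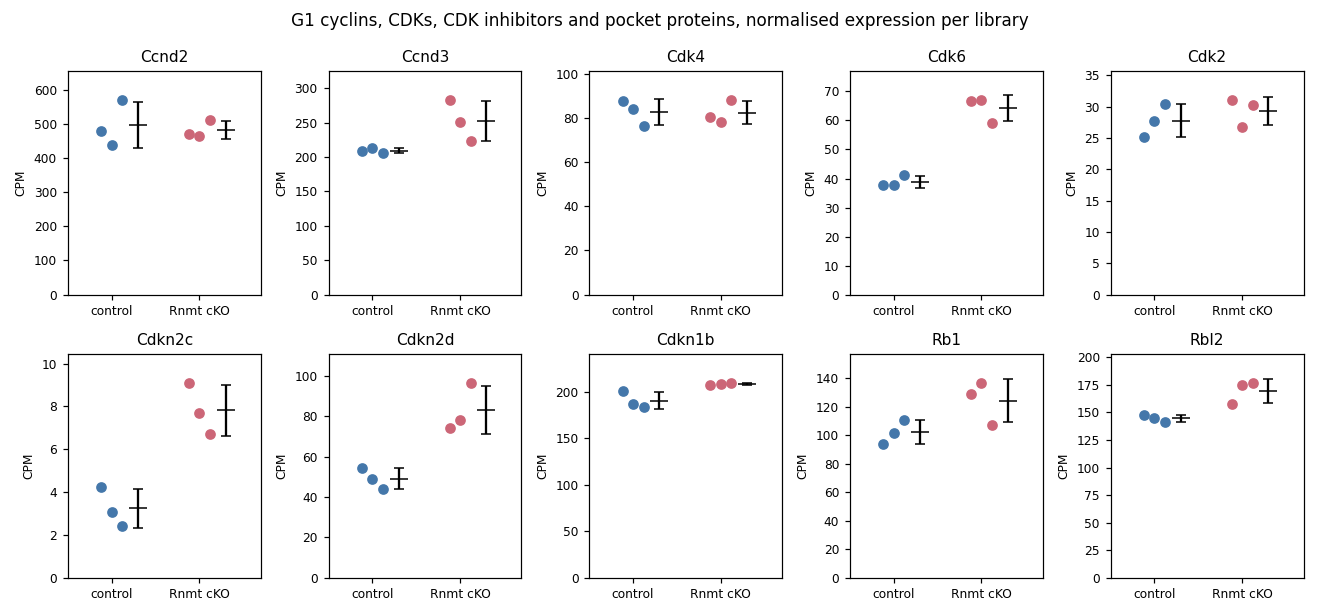
Normalised expression (CPM, linear axes from 0) of the 10 G1 regulators in each library, with 3 control points in blue, 3 Rnmt cKO points in red, and the mean and SD of each group in black. The Rnmt cKO points of Cdk6, Cdkn2c and Cdkn2d lie well above the control points, while those of Ccnd2, Cdk4 and Cdk2 are mixed with them.

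Cdkn2c, the INK4 inhibitor p18, had the largest change of the 10 and the lowest level. Its expression was 4.23, 3.09 and 2.43 CPM in controls 1, 2 and 3 and 9.09, 7.68 and 6.72 CPM in Rnmt cKO 1, 2 and 3. These values rest on 22 to 36 counts per control library and 75 to 91 counts per Rnmt cKO library. Every Rnmt cKO library was above every control, and the means of 3.25 ± 0.911 and 7.83 ± 1.19 CPM (mean ± SD, n = 3 per genotype) differed by 1.27 on the log2 scale (standard error, SE, 0.25, exact test adjusted p 3.36e-05). Cdkn2c lies on chromosome 4, 109660876 to 109667189 (mm10), on the minus strand. Within the libraries with a low share of reads in no gene its log2 difference was 0.86, and within those with a high share 1.702. Here and below, each such difference has 1 library on 1 side, Rnmt cKO 3 in the low set and control 3 in the high set.

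Cdkn2d, the INK4 inhibitor p19, rose from a control level well above that of Cdkn2c. It was at 54.4, 48.7 and 44.1 CPM in the controls and at 74.4, 78.4 and 96.4 CPM in the Rnmt cKO libraries. The groups did not overlap (log2 fold change 0.76, SE 0.14, exact test adjusted p 1.29e-07). The Rnmt cKO value was highest in library 3, the one with the lowest share of reads in no gene, and the log2 difference was 0.90 and 0.79 within the libraries of low and high share. Cdkn2d spans 21288410 to 21291407 on chromosome 9, also on the minus strand.

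Cdk6, the kinase that shares D-type cyclins with Cdk4, lies on the plus strand of chromosome 5, from 3341485 to 3531008. It was at 37.7, 37.6 and 41.3 CPM in controls and at 66.8, 67.1 and 59.2 CPM in Rnmt cKO cells. The lowest Rnmt cKO library was thus well above the highest control (log2 fold change 0.73, SE 0.07, exact test adjusted p 7.19e-10), and the log2 difference was 0.65 and 0.69 within the libraries of low and high share. Its close relative Cdk4 was at 87.6, 84.3 and 76.5 CPM in controls and at 80.4, 78.5 and 88.3 CPM in Rnmt cKO cells. The Cdk4 groups overlapped (log2 fold change -0.01, SE 0.08, exact test adjusted p 0.992). Cdk4 spans 127063534 to 127067920 on chromosome 10, plus strand. The adjusted p of Cdk6 stayed under the threshold in all 15 alternative fits and that of Cdk4 in none.

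Cdk2, the kinase of the E- and A-type cyclins at the entry to S phase, was at 25.2, 27.6 and 30.5 CPM in controls and at 31.1, 26.8 and 30.2 CPM in Rnmt cKO cells. The groups overlapped (log2 fold change 0.08, SE 0.10, exact test adjusted p 0.784). Ccnd2 was the most abundant of the 10 in reads, at 479.8, 438 and 570.4 CPM in controls and 469.6, 463 and 512 CPM in Rnmt cKO cells. Its Rnmt cKO values lay inside the range of the controls, at a log2 fold change of -0.04 (SE 0.12, exact test adjusted p 0.889). Ccnd2 spans 127125162 to 127152193 on chromosome 6 and Cdk2 spans 128697939 to 128705031 on chromosome 10, both on the minus strand. Control 3 held the highest Ccnd2 value, and without it the log2 fold change was 0.07, again with no call.

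Ccnd3, the other D-type cyclin of these cells, was at 209, 213 and 205 CPM in controls and at 283, 251 and 224 CPM in Rnmt cKO cells. The groups did not overlap, but the spread of the Rnmt cKO libraries was wide and the log2 fold change of 0.27 (SE 0.10) missed the threshold at an exact test adjusted p of 0.0668. Ccnd3 lies on chromosome 17 from 47505051 to 47599691, on the plus strand. Without Rnmt cKO 3, its lowest Rnmt cKO library, the log2 fold change was 0.33 with an adjusted p of 0.00085, whereas without Rnmt cKO 1 it was 0.18 with an adjusted p of 0.361, and no other library left out gave a call. Within the libraries of low share of reads in no gene the log2 difference of Ccnd3 was 0.09, and within those of high share it was 0.37.

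The pocket proteins gave similar values. Rb1 was at 94.1, 102 and 111 CPM in controls and 129, 137 and 107 CPM in Rnmt cKO cells, so that Rnmt cKO 3 lay below the highest control. Its log2 fold change was 0.28 (SE 0.12, exact test adjusted p 0.0802), and without Rnmt cKO 3 it was 0.36 with an adjusted p of 0.000802, against 0.20 and 0.382 without Rnmt cKO 2, and no other library left out gave a call. Rbl2 (p130), the pocket protein that holds E2F target genes silent in quiescent cells, was at 148, 145 and 141 CPM in controls and 157, 175 and 177 CPM in Rnmt cKO cells. Its groups did not overlap, at a log2 fold change of 0.23 (SE 0.06, exact test adjusted p 0.0801). Rb1 spans 73183673 to 73325822 on chromosome 14 (minus strand) and Rbl2 spans 91070057 to 91123844 on chromosome 8 (plus strand). Neither gene passed the threshold. Both passed it in a quasi-likelihood fit with the share of reads in no gene as a covariate, at adjusted p-values of 0.00523 for Rb1 and 0.00683 for Rbl2, as did Ccnd3 at 0.00949. In that fit 1696 of 12336 tested genes were higher and 1466 lower, against 987 and 844 in the reported fit.

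Cdkn1b, the quiescence inhibitor p27, held 201, 187 and 183 CPM in controls and 208, 208 and 209 CPM in Rnmt cKO cells. Every Rnmt cKO library was above every control, yet the log2 fold change was 0.13 (SE 0.04, exact test adjusted p 0.400). Cdkn1b lies on chromosome 6 from 134920401 to 134925513, on the plus strand. The call for Ccnd3, Cdkn1b, Rb1 and Rbl2 depended on how libraries were scaled. Scaled by library size alone, all 4 passed the threshold, with log2 fold changes of 0.40, 0.25, 0.41 and 0.35, when the median of all tested genes also moved from 0.01 to 0.14 and the share of higher genes among all calls from 53.9% to 78.4%.

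Levels of different genes were compared per kilobase of annotated exon (RPKM), which depends on how much of a long untranslated region these cells use. In controls the D-type cyclins led, with Ccnd3 at 85.5 ± 1.55 RPKM and Ccnd2 at 73.9 ± 10.1 RPKM (mean ± SD, n = 3 for both), in an order that held in 2 of 3 libraries. They were followed by Cdkn1b at 41.8 RPKM and Cdk4 at 40.3 RPKM, which did not differ beyond their spread, and by Cdkn2d at 33.3 RPKM and Rbl2 at 29.4 RPKM, whose ranges also overlapped. Rb1 at 21.9, Cdk2 at 11.5, Cdk6 at 3.37 and Cdkn2c at 1.21 RPKM came next, with no overlap between neighbours. In Rnmt cKO cells the order was the same but for Cdkn2d, which at 56.3 ± 7.93 RPKM (mean ± SD, n = 3) lay above Cdkn1b at 45.7 RPKM and Cdk4 at 40.1 RPKM in all 3 libraries. The ranges of neighbours did not overlap anywhere in the Rnmt cKO order.

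Ratios within a library do not depend on the scaling between libraries, and they are given as descriptions with no test. Cdk6 made up 7.13%, 7.36% and 8.77% of the summed RPKM of Cdk4 and Cdk6 in controls and 12.9%, 13.2% and 10.7% in Rnmt cKO cells. The groups did not overlap, though Cdk4 remained the larger part by far. The summed RPKM of the INK4 inhibitors Cdkn2c and Cdkn2d over that of their targets Cdk4 and Cdk6, a ratio chosen after the values were seen, was 0.838, 0.771 and 0.753 in controls and 1.20, 1.27 and 1.41 in Rnmt cKO cells. INK4 transcripts were thus fewer than those of their kinase targets in each control and more numerous in each Rnmt cKO library, by this measure of length. Within the INK4 pair Cdkn2c took 3.47 ± 0.584% in controls and 5.03 ± 1.30% in Rnmt cKO cells, and within the D-type cyclins Ccnd2 took 46.2 ± 3.77% and 41.1 ± 3.94% (mean ± SD, n = 3 per genotype), with overlapping groups for both. The share of Rb1 in Rb1 and Rbl2 was 42.7 ± 2.54% and 43.6 ± 3.89% (mean ± SD, n = 3 per genotype), also with overlap.

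**Figure D2:**
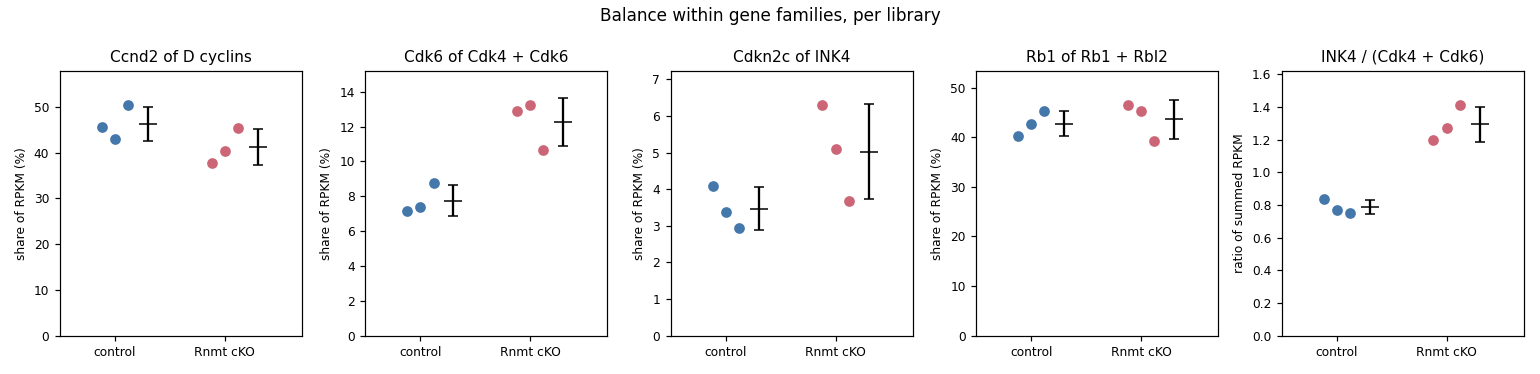
Shares of RPKM within gene families in percent (first 4 panels) and the ratio of INK4 inhibitor RPKM to Cdk4 and Cdk6 RPKM (last panel), per library, with group mean and SD in black and axes from 0. The Cdk6 share and the INK4 ratio separate the groups, with ratios of 0.753 to 0.838 in controls and 1.20 to 1.41 in Rnmt cKO cells, and the other shares overlap.

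The promoters of the members were searched for E2F motifs because E2F factors both act through and are restrained by this pathway. RefSeq promoter windows, from 250 bases before to 50 after a start site on GRCm38, were held for 8 of the 10 genes, Ccnd2 and Rb1 being those without. The letters searched on either strand were TTCCCGC and the variant TTGCCGC, along with TTGGCGC and the variant TTCGCGC. At least 1 of them was found in 9.57% of all such windows, and among the members in 1 of 2 windows of Cdkn2c, which rose, and in that of Cdk2, which overlapped between groups. The Cdk2 window held 3 matches, the last 40 bases after the start. The matches before the start site are shown 5′ to 3′ on the strand of the gene with the motif in capitals, since they set a member that rose beside one with no call.
Cdkn2c, 25 bases before the start, chr4:109666765-109666791, minus strand: gggcccggccTTCCCGCtcccgcggcg
Cdk2, 140 bases before the start, chr10:128705175-128705201, minus strand: accaggaactGCGGGAAagttgtgcag
Cdk2, 10 bases before the start, chr10:128705045-128705071, minus strand: ccagggaaacGCGGGAAggaggggcgg
A forkhead (FOXO) motif, GTAAACA on either strand, was found in 3.65% of all windows and among the members in 1 of 2 windows of Ccnd3. Such a match is a description of the letters in these windows. The windows of Cdk6 and Cdkn2d, both of which rose, held neither motif.

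Another 44 genes of the G1 pathway were counted in the same fit, of which 40 were tested, 12 were higher and 1 was lower, with a median log2 fold change of 0.11. The background is again 8.0% higher and 6.84% lower. With more than 1 CPM required in all 6 libraries, 7 of 34 were higher and 0 lower. The 6 genes that dropped out were Wee1, which was under 1 CPM in control 3, Cdkn1c, which exceeded 1 CPM only in controls, and Ccne2, E2f1, E2f7 and E2f8, which exceeded it only in Rnmt cKO cells. The last 5 had to differ to be tested at all, so they are described by their counts. The number higher was 5 without Rnmt cKO 1 and 7 without Rnmt cKO 2. The 4 genes not tested were Ccnd1, Cdkn1a, Cdkn2a and Cdkn2b.

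Of the cyclins that act after the D-type cyclins, Ccna2 and Ccne1 rose. Ccne1 and Ccne2 encode the E-type cyclins that activate Cdk2 at the entry to S phase, and Ccna2 encodes the A-type cyclin of S and G2 phase. Ccna2 was at 1.41, 1.60 and 1.21 CPM in controls and 16.2, 19.8 and 18.1 CPM in Rnmt cKO cells, at a log2 fold change of 3.66 (SE 0.13, exact test adjusted p 8.44e-49). Ccne1 went from 6.25 ± 1.01 CPM to 10.5 ± 0.853 CPM (mean ± SD, n = 3 per genotype) at an exact test adjusted p of 0.00265, and was no longer called without control 2. Ccne2 held 7, 8 and 9 counts in controls and 41, 62 and 28 in Rnmt cKO libraries, and was not called with reads of either strand (edgeR exact test adjusted p 0.122). Their kinase Cdk2 had no such difference in the values above. Ccnd1, the D-type cyclin of many other tissues, held 2 to 9 counts per library in both groups.

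Among E2F factors E2f2, an activator of cell cycle genes, rose. It was at 29.7, 23.6 and 28.3 CPM in controls and 95.5, 96.7 and 90.8 CPM in Rnmt cKO cells. It rose by 1.80 on the log2 scale (SE 0.11, exact test adjusted p 9.43e-54), and its Rnmt cKO libraries differed little from each other. E2f1, another activator, held 5, 7 and 9 counts in controls and 33, 36 and 27 in Rnmt cKO libraries. E2f8, a repressor made in S phase, held 4, 2 and 1 counts in controls and 41, 59 and 43 in Rnmt cKO libraries, and its relative E2f7 held 0, 6 and 5 against 27, 38 and 25. E2f3 passed the threshold at a log2 fold change of 0.72 with an exact test adjusted p of 0.0231, but in only 7 of 14 alternatives. E2f4, the repressor that partners with Rbl2 in resting cells, was at 0.23 with an adjusted p of 0.102, and Rbl1 (p107), the third pocket protein, was at 0.21 with an adjusted p of 0.101.

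Inhibitors other than the members were scarce. Cdkn1c (p57), of the same family as p27, held 24, 12 and 19 counts in controls and 1, 11 and 8 in Rnmt cKO libraries, and in CPM the groups did not overlap. It was not called by the quasi-likelihood test or without Rnmt cKO 1, with adjusted p-values of up to 0.176, and had too few reads to be tested without any 1 of the controls. Cdkn1a (p21), a p53 target, was below the level for testing, with 0, 0 and 3 counts in controls and 8, 16 and 16 in Rnmt cKO libraries. Cdkn2a held 0 counts in every control and Cdkn2b 0 counts in every library.

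Of the other parts of the pathway, 1 gene in each of 4 sets was called. Lin37, a subunit of the MuvB core that joins Rbl2 and E2F4 in the DREAM repressor complex, rose from 17.3 ± 0.436 CPM to 23.9 ± 1.88 CPM (mean ± SD, n = 3 per genotype) as 1 of 5 MuvB genes, at an exact test adjusted p of 0.00569. It was no longer called without Rnmt cKO 1. Wee1, the kinase that holds CDKs inactive, was higher among 6 genes of CDK activation at a log2 fold change of 1.21 (SE 0.26, exact test adjusted p 0.00663), and lost the call with DESeq2 and without Rnmt cKO 1 or controls 2 or 3. Cks1b, a cofactor of p27 degradation, was higher among 9 genes of cyclin and p27 turnover at a log2 fold change of 0.89 (SE 0.26, exact test adjusted p 0.00874), and lost it with DESeq2 and without control 3. Its partner Skp2 was at 0.06. Klf2, a factor of T cell quiescence, rose from 277 ± 25.6 CPM to 412 ± 41.97 CPM (mean ± SD, n = 3 per genotype) with an adjusted p of 1.97e-05 among 5 upstream factors. Foxo1 and Foxo3, which activate Cdkn1b and Rbl2 in resting cells, were at -0.17 and 0.14 and Myc at 0.12, with adjusted p-values of 0.256, 0.384 and 0.555.

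**Figure D3:**
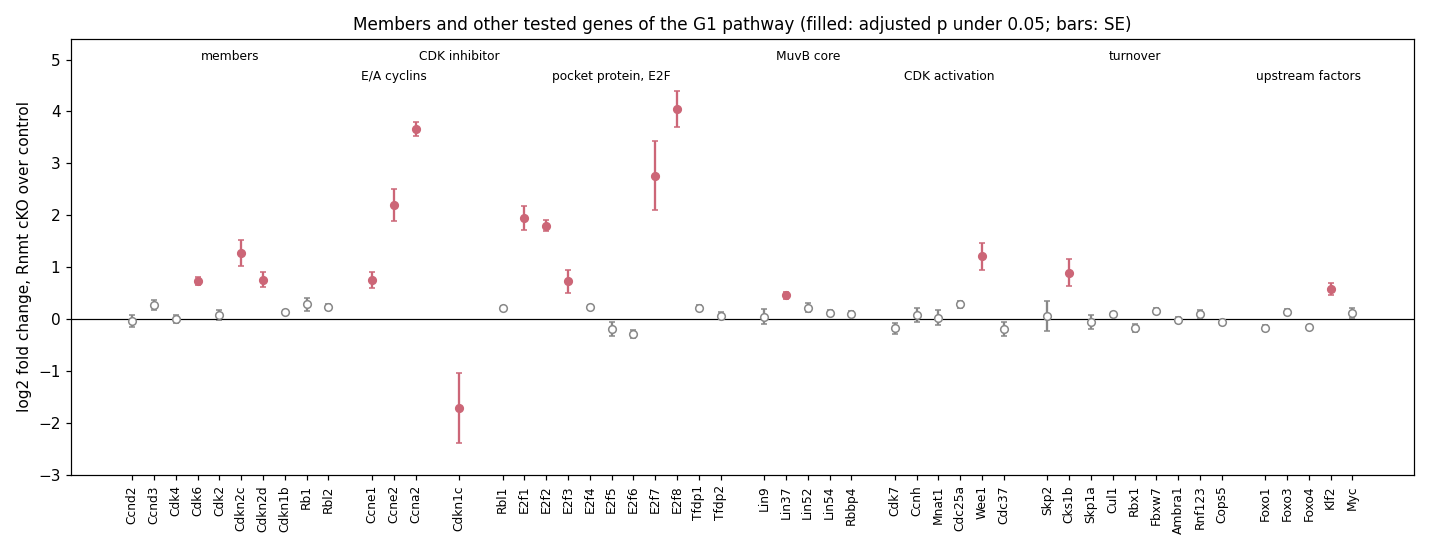
Log2 fold change (Rnmt cKO over control, with standard error bars) of the 10 members and the 40 other tested genes of the G1 pathway by role, filled in red where the exact test adjusted p is under 0.05. Of the genes above 1 CPM in all 6 libraries, Ccna2 at 3.66 and E2f2 at 1.80 stand highest. The points of Ccne2, E2f1, E2f7, E2f8 and Cdkn1c are of genes that had to differ to be tested, so their heights are not ranked. Most genes of CDK activation and turnover lie near 0.

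Genes downstream of this pathway were higher in the same libraries. Of 19 E2F target genes of S phase, 13 were higher and 0 were lower, also 0 lower at an unadjusted p under 0.05 and by the quasi-likelihood test and DESeq2, with a median log2 fold change of 0.69, and 13 of the 17 with more than 1 CPM in all 6 libraries were higher. Of the 16 mitosis genes, 10 had more than 1 CPM in all 6 libraries, and 10 of these 10 were higher. Birc5, Bub1, Ccnb2, Cdk1 and Tpx2 were also called higher. They were under 1 CPM in most controls, so they passed the filter largely through the Rnmt cKO libraries. Aurkb was under 1 CPM in every control and had to differ to be tested, so it is described by its counts. It held 2, 10 and 3 counts in controls and 41, 57 and 35 in Rnmt cKO libraries. The median log2 fold change of 2.47 was taken over all 16 mitosis genes and includes Aurkb and the genes under 1 CPM in most controls. The background for both lists is 8.0% of tested genes called higher and 6.84% called lower. Mcm4, Mcm6 and Mcm7, subunits of the replicative helicase, rose by log2 fold changes of 0.48, 0.42 and 0.63 at adjusted p-values in the exact test of 5.67e-05, 0.00025 and 4.19e-09. Mki67, the proliferation marker Ki-67, was at 17.2, 16.1 and 12.5 CPM in controls and 115, 128 and 108 CPM in Rnmt cKO cells. Top2a, the topoisomerase of dividing cells, rose from 19.05 ± 1.64 CPM to 112 ± 7.75 CPM, and the mitotic motor Kif11 from 4.03 ± 0.432 CPM to 24.9 ± 1.22 CPM (mean ± SD, n = 3 per genotype). The summed expression of the mitosis genes was 55.7 to 65.0 CPM in controls and 348, 380.2 and 326 CPM in Rnmt cKO 1, 2 and 3. Of the members that rose, Cdkn2d was highest in Rnmt cKO 3, where this sum was lowest of its group. Cdk6 and Cdkn2c had their lowest Rnmt cKO values in that library. The summed expression of the S phase genes was highest there, at 762, 772 and 874 CPM in Rnmt cKO 1, 2 and 3. The part of cycling cells in the members' values was not tested.

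Marker genes of other cells also moved with the groups, and their part in the members' values was not tested either. Of 6 markers of activated T cells 3 were higher (Nr4a1, Egr2 and Tnfrsf4) and 1 lower (Il2ra), with sums of 249 to 263 CPM in controls and 295 to 339.7 CPM in Rnmt cKO cells. Of 6 B cell markers 3 were higher and Ighm lower, with sums of 316 to 378 CPM and 221 to 269 CPM. Of 6 myeloid markers 4 were tested, with sums of 4.39 to 5.96 CPM and 11.5 to 33.2 CPM, while Cd14 was at 0 counts in controls. Lyz2 was called higher. S100a8 and S100a9 exceeded 1 CPM only in Rnmt cKO cells and had to differ to be tested, so they are described by their counts. S100a8 held 0, 4 and 2 counts in controls and 17, 76 and 74 in Rnmt cKO libraries. S100a9 held 1, 2 and 2 against 24, 100 and 87. Both CD8 T cell markers were lower, with sums of 21.7 to 23.3 CPM and 13.5 to 17.3 CPM. Of 3 markers of regulatory T cells Foxp3 was lower, with sums of 112 to 135 CPM and 85.9 to 111 CPM. Of 4 markers of immature thymocytes 1, Dntt, was tested without a call, with sums of 9.61 to 12.6 CPM and 9.20 to 10.7 CPM, and Ptcra was at 0 in every library.

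**Figure D4:**
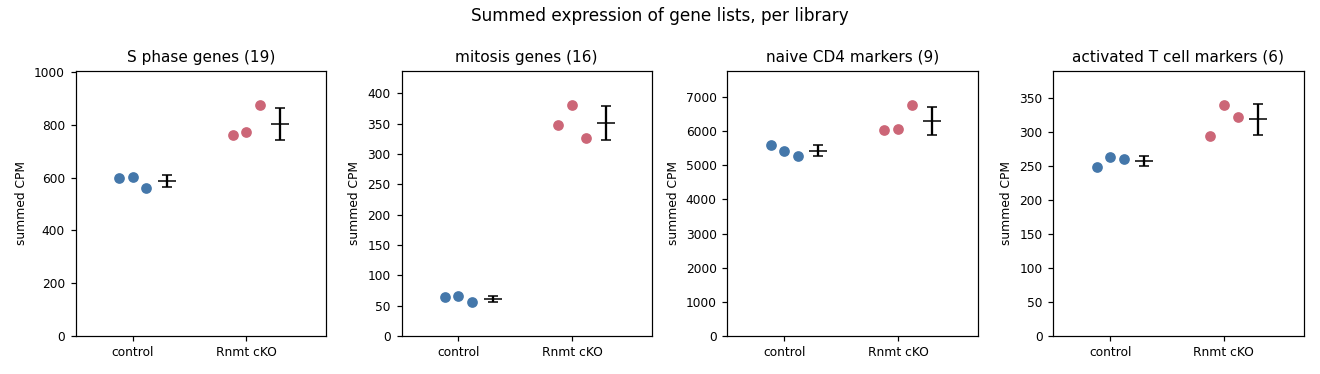
Summed CPM of the S phase, mitosis, naïve CD4 T cell and activated T cell gene lists in each library, with group mean and SD in black and axes from 0. The mitosis genes separate the groups most, at 55.7 to 65.0 CPM in controls and 326 to 380.2 CPM in Rnmt cKO cells.

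The genes with the profile most like each member that rose were sought among 8953 protein-coding genes, by the mean absolute difference of centred log2 CPM over the 6 libraries. For Cdk6 these were Dpp4 and C330018D20Rik, at differences of 0.0325 and 0.0405. Dpp4, a surface peptidase of T cells, was at 108, 100.01 and 111 CPM in controls and 183, 179 and 165 CPM in Rnmt cKO cells. For Cdkn2d they were Slfn9 and Erf, at 0.0394 and 0.0476, and for Cdkn2c they were Gm12185 and Rragd, at 0.107 and 0.125. The profiles of the genes nearest to Cdkn2c were farther from it than those nearest to Cdk6 or Cdkn2d, in a gene with few counts.

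**Figure D5:**
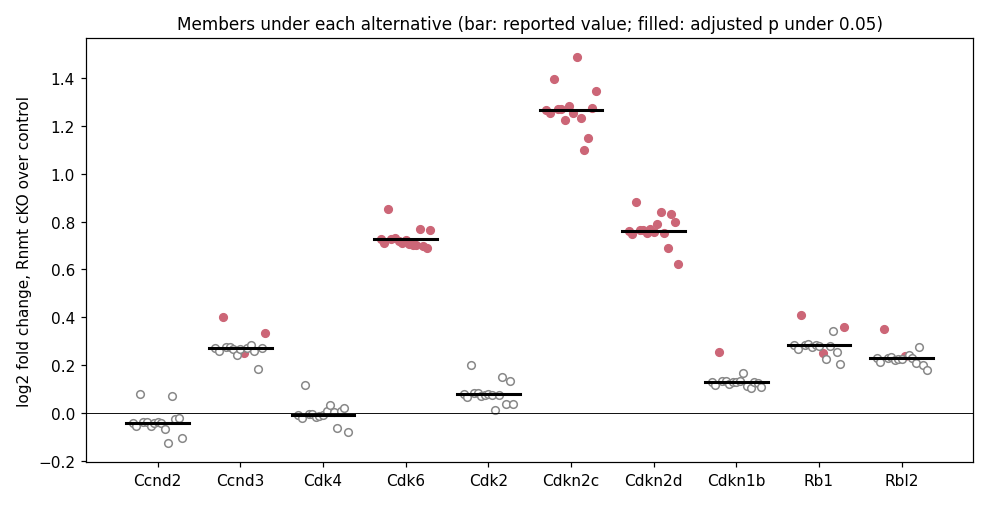
Log2 fold change (Rnmt cKO over control) of each member in the reported fit (black bar) and under each alternative fit (points, filled in red where the adjusted p is under 0.05). Cdk6 ran from 0.69 to 0.85 and Cdkn2d from 0.62 to 0.88 with every point filled, and the points of Ccnd2 and Cdk4 lie on both sides of 0.

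Neighbouring genes on the other strand touched several members. Cdk4 shares 641 exonic bases with Tspan31, Rbl2 shares 418 with Aktip, Ccnd3 shares 361 with Bysl and Rb1 shares 105 with Rcbtb2, all on opposite strands, whereas Cdkn2c, Cdkn2d and Cdkn1b overlap no annotated gene. Because counts were taken by strand, antisense reads did not enter the values above, and with reads of either strand Cdk6, Cdkn2c and Cdkn2d were again the members called.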

How the data were processed

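The authors mapped the paired-end reads of 6 libraries (mm10, GENCODE vM12 basic) with STAR 2.5.2b. The raw counts per gene they deposited cover either strand and each strand. Lines of unassigned reads, 50.5% to 60.7% of fragments, were left out. The authors also deposited an edgeR table with fold changes, p-values and a normalized signal per library, of which the symbols were used. Its signal columns equal the sense counts times 1 constant per library, within 0.1%, for all 11221 genes. Of 46983 gene IDs, 46488 were found in GENCODE vM21, which gave lengths and coordinates on the same build.

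The test took genes above 1 CPM in 3 or more libraries and was made in edgeR 4.0.16 (R 4.3.3) with TMM factors, the exact test and Benjamini-Hochberg adjustment over all tested genes at 0.05. Log2 fold changes compare Rnmt cKO with control, and standard errors come from log2 CPM with a prior count of 2. Within a group, chi-square over its degrees of freedom was 3.64 to 22.9 between libraries, above the value near 1 of sampling noise. Each library was treated as a replicate, though this excess alone does not show that they came from separate animals. Alternatives were the quasi-likelihood test, with a replicate block or a covariate, DESeq2 1.42.0, scaling by library size, other filters, reads of either strand and leaving out each library. The code was tested on simulated counts. Figures were drawn with matplotlib 3.10.9.

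The members and gene lists were chosen with earlier results of these data known. Named genes are the members, Rnmt, called genes of the pathway list, the 3 most abundant called genes of the S phase and mitosis lists and the 2 genes nearest in profile to each member that rose; other names, among them markers, were chosen after their values were seen. Motifs were also chosen then. The values of 1 naïve T cell marker are not reported here.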

Additional observations from a re-analysis of the deposited data

Results flagged for a closer look

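Antisense reads at Ccnd3, a count column that enters none of the comparisons, were higher in every Rnmt cKO library than in any control. They came to 3.41, 3.49 and 2.54 CPM in controls and 3.59, 4.47 and 4.30 CPM in Rnmt cKO cells, a mean of 3.15 against 4.12 CPM. They made up 1.57% of the reads of both strands at Ccnd3, and Bysl shares 361 exonic bases with Ccnd3 on the other strand. Ccnd3 was not alone in this among the members. Antisense reads were also separated upwards at Cdkn2d, from a control mean of 0.0368 to 0.582 CPM, with at most 7 counts per library. They were separated downwards at Cdk4, from 8.41 to 7.43 CPM, and at Rb1, from 18.8 to 14.6 CPM. At the remaining members the groups overlapped. None of these differences was tested, and the share of all genes with such a separation of antisense reads was not determined.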

How the results depend on the processing

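Cdk6, Cdkn2c and Cdkn2d were higher past the threshold in every fit in which they were tested, 15, 14 and 15 alternatives, with the highest adjusted p-values at 0.00849, 0.0210 and 0.0177. Cdkn2c was not tested with more than 10 CPM required in at least 3 libraries. The number of members higher was 7 with scaling by library size alone, 6 with the covariate, 5 without Rnmt cKO 3 and 3 to 5 over the libraries left out, with 0 lower throughout. Calls over all genes grew in these fits too. The number higher was 1938 of 12336 tested genes by library size, 1696 of 12336 with the covariate and 1221 of 12181 without Rnmt cKO 3. It was 987 of 12336 in the reported fit. Deviations of same-numbered libraries from their group means correlated at -0.213, -0.016 and -0.345, and those of control 1 and Rnmt cKO 3 at 0.354. The replicate numbers thus gave no sign of pairing, but 3 libraries per group cannot exclude it. With a replicate block 3 members were higher, 7 other pathway genes were higher and 0 lower. The log2 fold change of Ccnd2 turned from -0.04 to 0.0782 with library size scaling, and ran from -0.126 to 0.0687 over the libraries left out, the last without control 3. That of Cdk4 turned from -0.01 to 0.116 with library size scaling and 0.00865 with the covariate, and ran from -0.0781 to 0.0324 over the libraries left out, above 0 in 4 of the 6. Neither gene was called in any of these. Of the other pathway genes, 7 were higher and 0 lower with more than 1 CPM in all 6 libraries, 5 and 0 with more than 10 CPM, 0 lower with the quasi-likelihood test, 3 lower with the covariate, and over the libraries left out 5 to 12 were higher and 0 to 3 lower. With more than 10 CPM, 8 S phase and 5 mitosis genes were higher, of 13 and 5 tested, and with more than 1 CPM in all libraries 10 of 10 mitosis genes; here fewer genes were tested. By CPM in place of RPKM the Cdk6 share differed by 11.9 percentage points rather than 4.50, and the INK4 ratio by 0.190 rather than 0.505, since exon lengths no longer enter. Over the libraries left out, these differences ran from 4.02 to 5.30 points and from 0.447 to 0.553. The share of Rb1 differed by -0.483 to 3.14 points, and that of Cdkn2c by 0.929 to 2.23 points. Among the members and the called pathway genes, depth limits Cdkn2c, Ccne2, E2f1, E2f7, E2f8, Cdkn1c, Wee1 and Cks1b, which held under 100 counts in each library.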
